A study of Mus musculus with 4 samples.

Results

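Receptor genes through which sympathetic neurons can sense their own transmitters were followed in sympathetic ganglia (SG): the α1-adrenergic receptors *Adra1a* and *Adra1b*, the α2-adrenergic receptors *Adra2a*, *Adra2b* and *Adra2c*, the β1-adrenergic receptor *Adrb1*, and the neuropeptide Y (NPY) receptors *Npy1r*, *Npy2r* and *Npy5r*. They were found by gene symbol, and all 9 were among the 17667 genes listed in at least 1 library. Of the 9, 8 were listed in all 4 libraries, and the same number had at least 12 reads in total, the minimum used for comparing libraries.

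Postganglionic sympathetic neurons release norepinephrine together with NPY. The α2 receptors and the Y1, Y2 and Y5 receptors couple to Gi/o proteins, which lower cAMP, close presynaptic calcium channels and open potassium channels. On the neuron that released the transmitter they act as autoreceptors and limit further release, a role best known for *Adra2a*, *Adra2c* and the Y2 receptor. The α1 receptors couple to Gq and phospholipase C and the β1 receptor to Gs and adenylyl cyclase, and both are best known on the target cells of sympathetic nerves.

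RNA-seq was performed on SG from thoracic levels T1–T4, which send nerves to interscapular brown fat, of C57BL/6 mice aged 12 weeks after a stay of 1 day at 5 °C. Each of the 4 libraries was made from the pooled SG of several mice. The WT mice gave 2 libraries (WT_1 and WT_2, n = 2). Another was from TRKC+/- mice, which carry 1 functional allele of the neurotrophin-3 (NT-3) receptor gene *Ntrk3* in every cell, and the last was from AdNTF3-Tg mice, which carry an NT-3 coding sequence driven by the adiponectin promoter and so express it in adipocytes. All mice were kept in the cold, so no library shows the ganglia at a warmer temperature. The WT pools were controls of the 2 mutant lines, so the spread between them can hold a difference between lines, but the labels do not say which WT library was the control of which mutant. Each mutant was therefore compared with the mean of both WT libraries, and the value against each WT library is given where it matters. With 1 library per mutant, no difference between genotypes had a replicate check, and the 2 WT libraries gave the only measure of the spread between libraries labelled with 1 genotype.

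Between 8665955 and 8894985 reads fell on genes per library, and 3 reads, the smallest signal the depth can show, were 0.337 to 0.346 CPM (reads scaled to library size). FPKM corrects a gene's reads for its length and for the size of the library. *Ntrk3* was at 2.45 FPKM in WT_1, 2.52 in WT_2, 2.72 in the library labelled TRKC+/- and 2.32 in AdNTF3-Tg, and so was not lower in the library labelled TRKC+/-. Which exons the targeted allele lacks is not given in the sources used here, and a count over the whole gene may include reads from that allele, so this value neither bears out the label nor goes against it. *Ntf3*, the NT-3 gene, had 2 reads in the library labelled TRKC+/- and none in the other 3. The 9 sympathetic neuron markers, led by *Npy* and *Th*, summed to between 8287 and 9005 FPKM, and 0 of the 9 passed the cutoff of 0.5 on the log2 scale, up or down, in any comparison. All 9 had a mean of at least 200 reads. Of all genes with so many reads, 0.221% passed in the library labelled TRKC+/-, 0.573% in AdNTF3-Tg and 1.29% between the WT libraries. A count of 0 is thus the background for such genes. Markers of neighbouring tissues varied more. The 6 adipocyte markers summed to 380.8 FPKM in WT_1, 343.9 in WT_2, 210.5 in the library labelled TRKC+/- and 278.3 in AdNTF3-Tg. The 5 skeletal muscle markers summed to 64.0 FPKM in WT_1, 2.80 in WT_2, 32.1 in the library labelled TRKC+/- and 23.2 in AdNTF3-Tg, so that the WT libraries differed most.

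The 3 α2 genes carried most of the receptor mRNA, and for this reason their promoters are shown. Each line gives the 250 bases before the start of the gene, 5′ to 3′ on the gene's strand, from RefSeq on build GRCm38.p6. Capitals mark matches on either strand to TATAAA (the TATA box), GGGCGG (the GC box) and TGACG (the core of a cAMP response element), and no match overlaps another. The *Adra2a* window is chr19:54045009-54045258, that of *Adra2b* is chr2:127362929-127363178 and that of *Adra2c* is chr5:35278316-35278565, all on the plus strand.
Adra2a: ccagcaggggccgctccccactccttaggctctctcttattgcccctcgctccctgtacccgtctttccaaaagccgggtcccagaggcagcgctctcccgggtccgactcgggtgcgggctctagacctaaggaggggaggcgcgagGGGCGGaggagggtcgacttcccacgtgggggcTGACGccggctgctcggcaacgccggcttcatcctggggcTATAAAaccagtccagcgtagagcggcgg
Adra2b: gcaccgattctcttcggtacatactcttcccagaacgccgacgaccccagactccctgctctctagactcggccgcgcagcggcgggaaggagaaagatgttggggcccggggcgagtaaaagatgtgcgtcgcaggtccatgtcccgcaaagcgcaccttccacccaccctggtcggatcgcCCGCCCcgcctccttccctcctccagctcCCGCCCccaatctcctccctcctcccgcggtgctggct
Adra2c: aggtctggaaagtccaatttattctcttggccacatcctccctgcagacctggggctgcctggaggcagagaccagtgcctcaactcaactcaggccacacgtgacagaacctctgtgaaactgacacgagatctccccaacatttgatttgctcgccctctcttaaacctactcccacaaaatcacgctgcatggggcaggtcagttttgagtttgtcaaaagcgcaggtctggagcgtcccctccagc
The *Adra2a* window held 1 match to each motif, *Adra2b* held 2 GC boxes, written as CCGCCC on this strand, and *Adra2c* held none. Among all 32851 RefSeq promoters of the same length, 12.4% held TATAAA, 32.7% GGGCGG and 17.8% TGACG. The windows also differed in base composition. *Adra2a* was 67.6% G or C with 22 CpG sites and *Adra2b* 66.0% with 23, whereas *Adra2c* was 53.6% with 6, close to the medians over all promoters of 52.4% and 6. These are matches of letters and were not tested for binding.

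*Adra2a* was the most abundant of the 9 receptors in every library. This gene (Entrez 11551, chr19:54045259-54048982) encodes the α2A receptor, the main autoreceptor of norepinephrine release. Its level was 14.36 FPKM (470 reads) in WT_1, 15.74 (523 reads) in WT_2, 15.14 (507 reads) in the library labelled TRKC+/- and 14.18 (469 reads) in AdNTF3-Tg. The WT libraries spanned nearly the whole range, with a coefficient of variation of 4.86% over the 4 libraries. The mean of 14.9 FPKM lay at percentile 65.3 of the 15113 genes compared. Relative to the WT mean, the log2 fold change came to 0.01 in the library labelled TRKC+/- (95% counting interval of the read ratio −0.15 to 0.16) and −0.09 in AdNTF3-Tg (−0.25 to 0.07). Here and below, the fold change is of FPKM + 0.1, the interval is an exact Clopper-Pearson interval for counting error only, and it compares libraries and not genotypes.

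*Adra2c* and *Adra2b* came next, and could not be ranked against each other. *Adra2c* (Entrez 11553, chr5:35278566-35281763) encodes the α2C receptor, which also restrains release, mainly at low firing rates. It was at 10.77 FPKM (296 reads) in WT_1, 10.83 (302 reads) in WT_2, 11.28 (317 reads) in the library labelled TRKC+/- and 11.65 (323 reads) in AdNTF3-Tg. This was the steadiest of the 9 genes, with a coefficient of variation of 3.71%. Both mutant libraries were above both WT libraries, by 0.06 (−0.14 to 0.26) in the library labelled TRKC+/- and by 0.11 (−0.10 to 0.30) in AdNTF3-Tg on the log2 scale against the WT mean, and both intervals included 0.

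*Adra2b* (Entrez 11552, chr2:127363179-127367221) encodes the α2B receptor, known mainly from vascular smooth muscle. Its level was 11.79 FPKM (398 reads) in WT_1, 10.06 (345 reads) in WT_2, 11.23 (388 reads) in the library labelled TRKC+/- and 9.12 (311 reads) in AdNTF3-Tg. AdNTF3-Tg was the lowest, with a log2 fold change of −0.26 (−0.46 to −0.07), but the WT libraries differed from each other by 0.23 (0.02 to 0.45), and against WT_2 alone the value was −0.14 (−0.37 to 0.08). The difference was therefore close in size to that between libraries of 1 genotype. Of the 6 smooth muscle and pericyte markers, 0 passed the cutoff in any comparison. Over all genes, 8.54% passed in the library labelled TRKC+/-, 11.1% in AdNTF3-Tg and 13.3% between the WT libraries. A count of 0 among 6 genes is near these shares. The 6 markers summed to 110.7 FPKM in WT_1, 89.3 in WT_2, 101.4 in the library labelled TRKC+/- and 88.2 in AdNTF3-Tg. *Tagln* made up most of this sum, and was at 73.05 FPKM in WT_1, 55.11 in WT_2, 67.61 in the library labelled TRKC+/- and 55.03 in AdNTF3-Tg, the same order of libraries as *Adra2b*. None of the other 5 markers had that order, and the median log2 fold change of the 6 was −0.03 in AdNTF3-Tg. Outside these markers, *Npy* and the macrophage markers *C1qa* and *Adgre1* had the same order, but the macrophage markers *Cd68* and *Csf1r* did not. The order was thus not particular to smooth muscle markers. The part of smooth muscle cells, pericytes or macrophages in the *Adra2b* level was not tested.

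*Adra2b* and *Adra2c* changed places between libraries. The FPKM ratio of *Adra2b* to *Adra2c* was 1.09 in WT_1, 0.929 in WT_2, 0.996 in the library labelled TRKC+/- and 0.783 in AdNTF3-Tg. The sum of the 3 α2 genes varied less, at 36.92 FPKM in WT_1, 36.63 in WT_2, 37.65 in the library labelled TRKC+/- and 34.95 in AdNTF3-Tg. This was 88.9%, 88.8%, 87.1% and 86.0% of the FPKM of all 9 receptors. The log2 ratio of the α2 sum to the WT mean was 0.03 (−0.07 to 0.13) in the library labelled TRKC+/- and −0.07 (−0.19 to 0.01) in AdNTF3-Tg, beside 0.01 (−0.10 to 0.14) for WT_1 over WT_2. All 3 intervals excluded a difference of 0.5 on the log2 scale, the cutoff used here, in either direction. In RNA from whole ganglia, fewer cells of a type and less RNA per cell cannot be told apart.

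**Figure D1:**
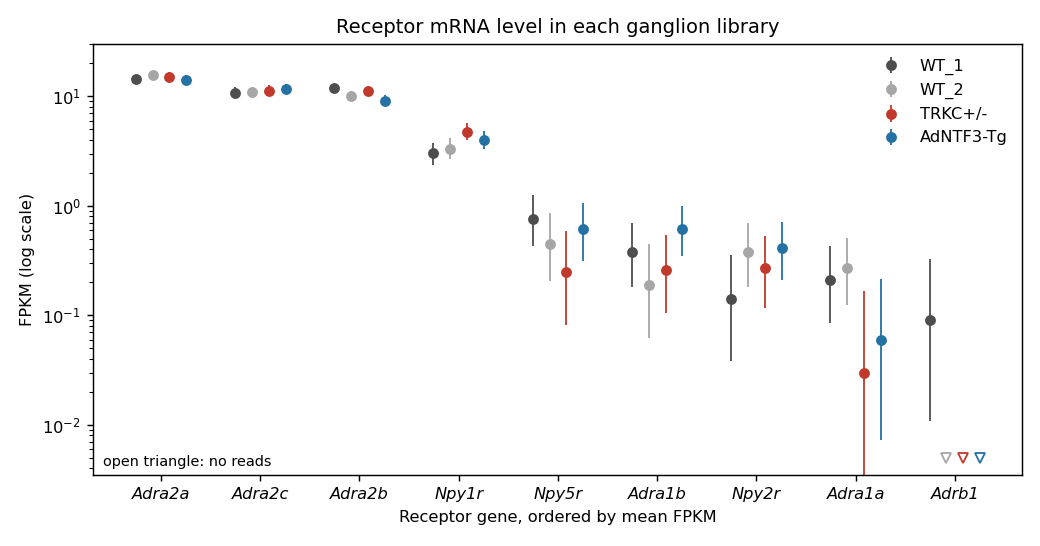
Level of each receptor mRNA (FPKM, log scale) in the 4 libraries, with exact Poisson 95% counting intervals as bars, genes ordered by mean, and open triangles for no reads. *Adra2a*, *Adra2c* and *Adra2b* sit between 9.12 and 15.74 FPKM, *Npy1r* between 3.01 and 4.76, and the other 5 genes below 1 FPKM with wide bars; the bar of *Adra1a* in TRKC+/- runs below the axis.

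*Npy1r* was the most abundant NPY receptor, and, of the 9 genes, the only one outside the α2 group above 1 FPKM. It encodes the Y1 receptor (Entrez 18166, chr8:66697149-66706800), which mediates vasoconstriction by NPY in blood vessels and is also found on neurons. Its level was 3.01 FPKM (77.2 reads) in WT_1, 3.32 (86.6 reads) in WT_2, 4.76 (125 reads) in the library labelled TRKC+/- and 4.01 (103.9 reads) in AdNTF3-Tg. Both mutant libraries were above both WT libraries, and the library labelled TRKC+/- was the highest. Its log2 fold change was 0.57 (0.24 to 0.93) against the WT mean, 0.64 against WT_1 and 0.51 against WT_2, while WT_1 and WT_2 differed by −0.14 (−0.61 to 0.31). In AdNTF3-Tg the value was 0.33 (−0.03 to 0.70), below the cutoff. The counts of *Npy1r* were not whole in 3 of the 4 libraries, as where reads are divided between genes or transcripts, so its counts are less certain than those of the α2 genes.

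*Npy1r* was also tested across all genes. In edgeR's quasi-likelihood test, which assumes that each mutant library varies like the 2 WT libraries, the log2 fold change was 0.58, the unadjusted p 0.0411 and the Benjamini-Hochberg adjusted p 0.998 in the library labelled TRKC+/-. In AdNTF3-Tg the p-values were 0.178 and 0.819. With 1 residual degree of freedom this test has little reach for a difference of this size, since *Ucp1*, at −2.62, had an edgeR adjusted p of 0.0843, so the adjusted p says nothing on how stable the *Npy1r* value is. A pseudocount of 1 FPKM in place of 0.1 brought the value to 0.47, just under the cutoff.

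*Npy5r*, the Y5 receptor gene, lies beside *Npy1r* in the opposite orientation (Entrez 18168, chr8:66679965-66688094, minus strand), with 9054 bases between them. It was at 0.76 FPKM (15 reads) in WT_1, 0.45 (9 reads) in WT_2, 0.25 (5 reads) in the library labelled TRKC+/- and 0.61 (12 reads) in AdNTF3-Tg. The library labelled TRKC+/- was the lowest for *Npy5r* and the highest for *Npy1r*. For *Npy5r* its log2 fold change was −1.01 against the WT mean, −1.30 against WT_1 and −0.65 against WT_2, but the counting interval of −3.03 to 0.13 included 0, and the WT libraries differed by 0.64. As a share of the FPKM of the 3 NPY receptors, *Npy1r* made up 77.0% in WT_1, 80.0% in WT_2, 90.2% in the library labelled TRKC+/- and 79.7% in AdNTF3-Tg.

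*Npy2r* encodes the Y2 receptor, the presynaptic NPY receptor that limits transmitter release (Entrez 18167, chr3:82538383-82548989, minus strand). It was at 0.14 FPKM (4 reads) in WT_1, 0.38 (10 reads) in WT_2, 0.27 (8 reads) in the library labelled TRKC+/- and 0.41 (12 reads) in AdNTF3-Tg. The WT libraries were nearly as far apart as any pair, with a log2 difference of −1. The AdNTF3-Tg library was at 0.50 against the WT mean (−0.47 to 1.99), but at 1.09 against WT_1 and 0.09 against WT_2, so WT_1 decided this value. The length behind the FPKM was 3022 bases in WT_2 and 3361 in the other libraries, which raises the WT_2 value slightly.

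The α1 receptors were near the limit of detection. *Adra1b*, the α1B receptor gene (Entrez 11548, chr11:43774605-43901250, minus strand), was at 0.38 FPKM (10 reads) in WT_1, 0.19 (5 reads) in WT_2, 0.26 (7 reads) in the library labelled TRKC+/- and 0.61 (16 reads) in AdNTF3-Tg. AdNTF3-Tg was the highest, at 0.88 (−0.03 to 2.20) on the log2 scale against the WT mean, 0.56 against WT_1 and 1.29 against WT_2, beside 0.73 between WT_1 and WT_2. *Adra1a*, the α1A receptor gene (Entrez 11549, chr14:66635251-66771240), was at 0.21 FPKM (7 reads) in WT_1, 0.27 (9 reads) in WT_2, 0.03 (1 read) in the library labelled TRKC+/- and 0.06 (2 reads) in AdNTF3-Tg. Both mutant libraries were below both WT libraries, at 1 and 2 reads beside 16 in the WT libraries together. The log2 fold change of *Adra1a* was −1.39 in the library labelled TRKC+/-, with −1.25 against WT_1 and −1.51 against WT_2. In AdNTF3-Tg it was −1.09, with −0.95 against WT_1 and −1.21 against WT_2. The log2 ratio of reads, without the added 0.1, was −3.02 (−8.41 to −0.34) in the library labelled TRKC+/- and −2.01 (−5.17 to 0.08) in AdNTF3-Tg. Against WT_1 alone, the interval in the library labelled TRKC+/- was −8.34 to 0.12 and included 0. The edgeR unadjusted p for *Adra1a* was 0.0267 and 0.0614, and the adjusted p was 0.998 and 0.819.

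*Adrb1*, the β1 receptor gene (Entrez 11554, chr19:56722117-56725150), had 2 reads in WT_1 and none in the other 3 libraries. This is under the 3 reads that a count of 0 allows, so that no fold is given and *Adrb1* enters no comparison.

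The order of the 9 levels was thus *Adra2a*, then *Adra2c* and *Adra2b*, then *Npy1r*, then the remaining 5. *Adra2a* stood above both other α2 genes, and *Adra2b* above *Npy1r*, with no overlap of their values over the 4 libraries. From *Npy5r* down through *Adra1b*, *Npy2r*, *Adra1a* and *Adrb1*, each gene's values overlapped those of its neighbour. The mean of *Npy1r* lay at percentile 33.7 of the genes compared, and those of *Npy5r*, *Adra1b*, *Npy2r* and *Adra1a* at 9.61, 6.72, 5.45 and 1.52.

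Past the cutoff of 0.5, the library labelled TRKC+/- held 3 of the 8 receptors compared: *Npy1r* above WT, and *Npy5r* and *Adra1a* below. Over all 15113 genes 8.54% passed. AdNTF3-Tg also held 3 (*Adra1b* and *Npy2r* above, *Adra1a* below), where 11.1% of all genes passed. Between the 2 libraries labelled WT, 3 passed as well (*Adra1b* and *Npy5r* above, *Npy2r* below in WT_1), where 13.3% of all genes passed. The 2 mutant comparisons share their WT libraries.

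Most of these calls were in genes with few reads, where such calls are common. Among genes with a mean under 25 reads, as for *Adra1a*, *Adra1b*, *Npy2r* and *Npy5r*, 37.4% passed the cutoff in the library labelled TRKC+/-, 43.6% in AdNTF3-Tg and 47.0% between the WT libraries. Among genes with a mean of 75 to 200 reads, as for *Npy1r*, 1.68%, 4.63% and 7.04% passed. At 200 reads or more, as for the 3 α2 genes, 0.221%, 0.573% and 1.29% passed. The read classes were chosen after the values were seen. *Npy1r* was the only receptor with over 25 reads on average that passed in any of the 3 comparisons.

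edgeR found 0 of the 15113 genes (0%) below an adjusted p of 0.05 in either mutant. At an unadjusted p under 0.05 there were 274 genes in the library labelled TRKC+/-, among them *Adra1a* and *Npy1r*, and 759 in AdNTF3-Tg, none of them among the 8 receptors. The adjusted p of the receptors was between 0.998 and 0.999 in the library labelled TRKC+/- and between 0.819 and 1.00 in AdNTF3-Tg. DESeq2 called 2 genes in the library labelled TRKC+/-, both lower, and 0 in AdNTF3-Tg, with 22 and 61 genes at an unadjusted p under 0.05. Neither of the 2 was a receptor: they were *Ucp1*, the uncoupling protein of brown adipocytes, at 7.80 FPKM beside 47.3 in WT_1 and 48.1 in WT_2, and *Npcd*, named after its values were seen.

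**Figure D2:**
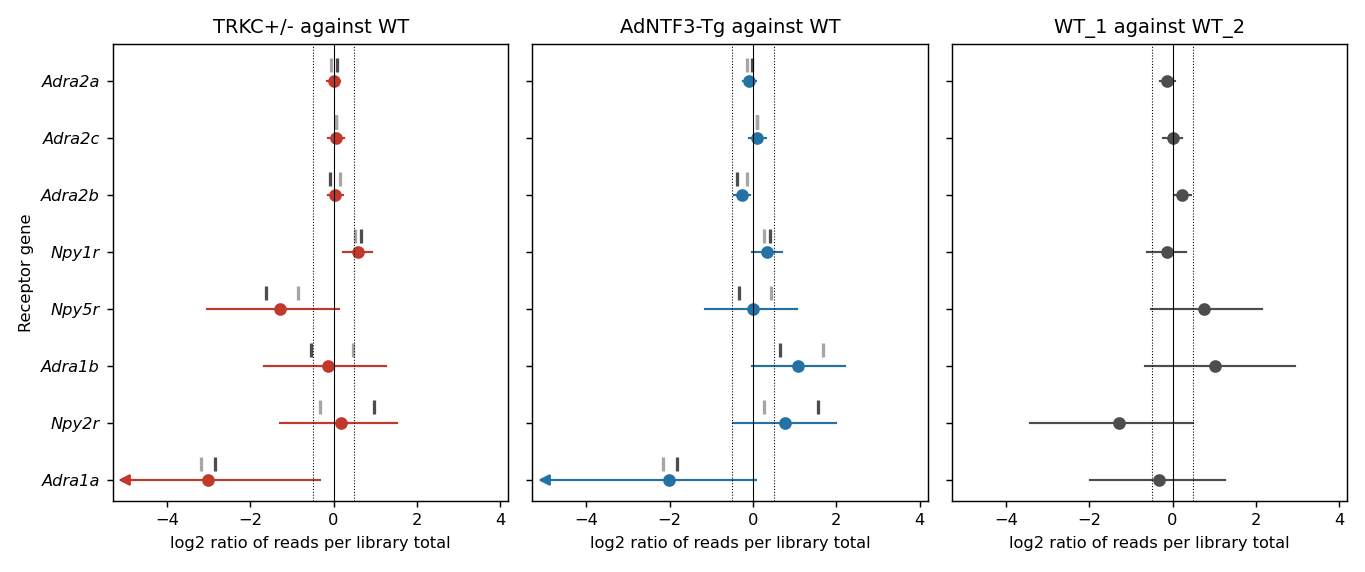
Log2 ratio of reads, scaled to the reads of each library, for the 8 receptors compared (points) with exact 95% counting intervals (lines); arrowheads mark lines that run on, ticks above the points give the value against WT_1 (dark) and WT_2 (light), and dotted lines mark 0.5 in each direction. The α2 genes stay within the dotted lines in all 3 panels, *Npy1r* lies to the right at 0.59 in TRKC+/-, and the 4 genes with few reads have long lines in all 3 panels.

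**Figure D3:**
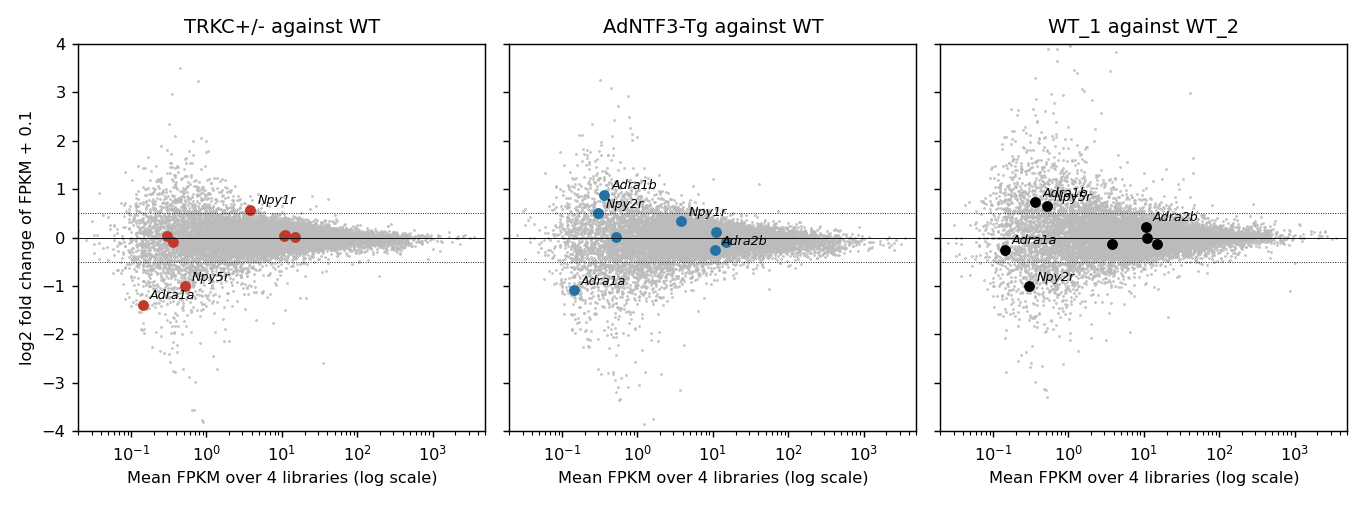
Log2 fold change of FPKM + 0.1 against mean FPKM (log scale) for the 15113 genes compared (grey), with the 8 receptors in colour, those beyond 0.2 named, and dotted lines at 0.5 in each direction; a few genes lie beyond the axis at 4. The cloud widens toward low levels, where 4 of the receptors lie, and *Npy1r* stands at the upper edge of the cloud in TRKC+/-.

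Further receptors of the same families were low. *Adra1d*, the α1D receptor gene, had 1 read in WT_1, 8 in WT_2, 9 in the library labelled TRKC+/- and 7 in AdNTF3-Tg. It passed the cutoff at 0.73 in the library labelled TRKC+/-, but was at 0.11 against WT_2, and WT_1 and WT_2 differed by −1.71, so WT_1 stood apart from the other 3 libraries. *Adrb3*, the β3 receptor of adipocytes, was between 0.54 and 0.71 FPKM, highest in WT_1 and lowest in AdNTF3-Tg. *Npy4r*, the receptor of pancreatic polypeptide, was at 0.99 FPKM in WT_1, 1.54 in WT_2, 1.28 in the library labelled TRKC+/- and 1.61 in AdNTF3-Tg.

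The ligands of these receptors and the enzymes that make them were far more abundant. *Npy* was at 2733 FPKM in WT_1, 2501 in WT_2, 2690 in the library labelled TRKC+/- and 2181 in AdNTF3-Tg. AdNTF3-Tg was below both WT libraries, with a log2 fold change of −0.26, where the library labelled TRKC+/- had 0.04. *Th*, the rate-limiting enzyme of catecholamine synthesis, was between 2576 and 2753 FPKM, and *Dbh*, which makes norepinephrine from dopamine, between 2100 and 2170. Of the 9 genes of transmitter supply, 1 passed the cutoff in AdNTF3-Tg (11.1% of all genes did) and 0 in the library labelled TRKC+/- (8.54% of all genes did). It was *Dpp4*, a peptidase that shortens NPY to a form that prefers the Y2 and Y5 receptors, which was at 0.58 FPKM (24 reads) in WT_1, 0.52 (24 reads) in WT_2, 0.58 (27 reads) in the library labelled TRKC+/- and 0.26 (12 reads) in AdNTF3-Tg, a log2 fold change of −0.85 (−2.06 to −0.07). In its class of under 25 reads, 43.6% of all genes passed in AdNTF3-Tg.

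The signalling genes below the receptors were next. Those with enough reads numbered 43, of which 32 had a mean of at least 200 reads, where 0.221% of all genes passed the cutoff in the library labelled TRKC+/- and 0.573% in AdNTF3-Tg, so that counts near 0 are the background for such genes. Of 13 Gi/o genes and their channel targets, 12 were listed, 11 had enough reads, and 0 passed the cutoff in either mutant. The nearest was *Gnai1*, a Gi α subunit, at 17.1 FPKM in WT_1, 21.6 in WT_2, 19.8 in the library labelled TRKC+/- and 25.4 in AdNTF3-Tg, a log2 fold change of 0.39 in AdNTF3-Tg (0.57 against WT_1 and 0.24 against WT_2). *Cacna1b*, the N-type calcium channel that α2 and Y2 receptors inhibit at the nerve terminal, was at 22.7 FPKM in AdNTF3-Tg and between 18.9 and 19.4 in the other libraries. Of the 8 Gq genes 1 passed, the phospholipase gene *Plcb2*, at −0.57 in the library labelled TRKC+/- on 11 reads beside 14 and 22 in WT. Its interval of −1.86 to 0.27 included 0, it was at −0.30 against WT_1, and 37.4% of all genes with under 25 reads passed there. Of the 12 Gs genes 0 passed, and of the 12 kinase, arrestin and RGS genes that shut receptors off 0 passed, with *Grk5* the farthest at 0.45 in AdNTF3-Tg.

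Over all 6 lists, 55 of 57 genes had enough reads. In the library labelled TRKC+/- 1 was above and 1 below the cutoff, with a median log2 fold change of 0.03 beside 0 over all genes, of which 8.54% passed. In AdNTF3-Tg 0 were above and 1 below, with a median of 0.02 beside −0.0029 over all genes, of which 11.1% passed. Between WT_1 and WT_2, 0 were above and 3 below (*Adra1d*, *Npy4r* and *Prkar2b*), where 13.3% of all genes passed. These shares are high for genes with many reads. Of the 43 signalling genes in these lists, 32 had a mean of at least 200 reads. In that class 0.221%, 0.573% and 1.29% of all genes passed in the 3 comparisons, so few calls are the background here.

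**Figure D4:**
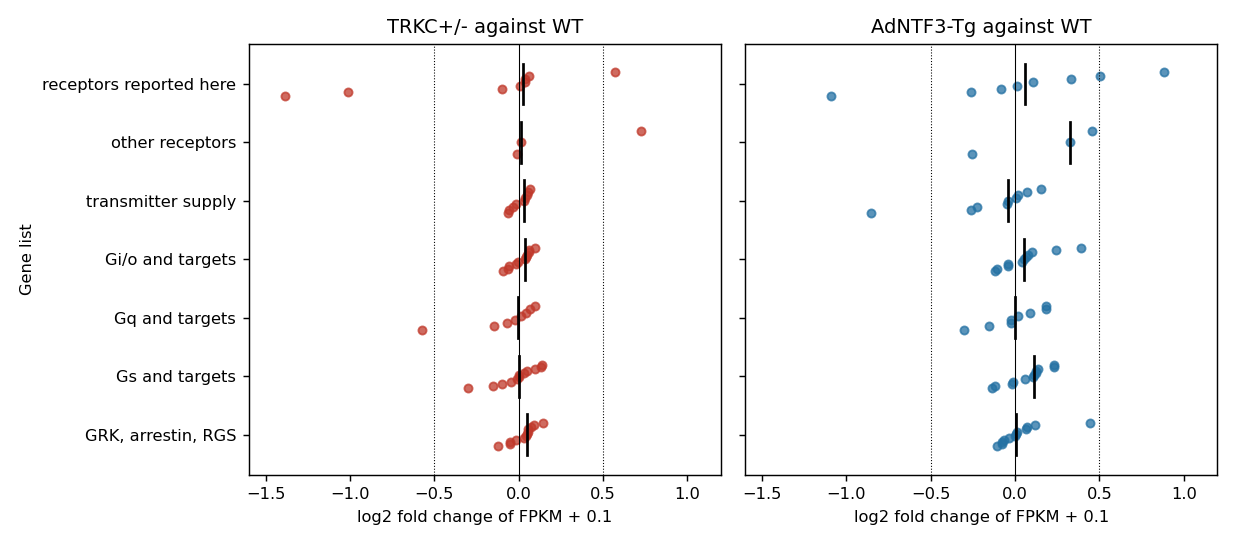
Log2 fold change of FPKM + 0.1 for the 8 receptors and for the 55 other genes of their families, transmitter supply and signalling (1 point per gene, black bar for the median), with dotted lines at 0.5 in each direction. In these 2 comparisons of a mutant with WT, 1 point of the signalling lists lies beyond the dotted lines, *Plcb2* in TRKC+/-. The widest spread is among the receptors, of which *Adra1a*, *Adra1b*, *Npy2r* and *Npy5r* have a mean under 25 reads. The α2 genes stay within the dotted lines.

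The genes whose pattern over the 4 libraries was closest to each α2 gene were sought by the root mean square distance of log2 levels, each centred on its own mean, over 12764 other genes. For *Adra2a* they included *Sfxn4* and *Mfsd14a*, those of *Adra2b* were *Irak3*, *P4ha3* and *Snx22*, and those of *Adra2c* were *Zfp941*, *Atp6v0a1* and *Hnrnpu*. With only 4 libraries many genes were about as close: 832, 190 and 1442 genes lay within a distance of 0.05 of *Adra2a*, *Adra2b* and *Adra2c*.

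Markers of other cell types also differed between libraries. In the library labelled TRKC+/-, the adipocyte markers *Ucp1* and *Fabp4* were lower than in WT by more than the cutoff, and in AdNTF3-Tg *Adipoq* and *Cidec* were. Both of the latter calls rested on WT_1: *Adipoq* was at −1.01 against WT_1 and −0.13 against WT_2, and *Cidec* at −0.71 and −0.35. For *Adipoq* WT_1 was itself above WT_2 by 0.88. Over all genes, 8.54% passed the cutoff in the library labelled TRKC+/- and 11.1% in AdNTF3-Tg. All 5 skeletal muscle markers (*Acta1*, *Ckm*, *Myh4*, *Tnnt3* and *Mylpf*) were higher in WT_1 than in WT_2 by more than the cutoff, which 13.3% of all genes passed. Against the WT mean, *Myh4* was lower by more than the cutoff in the library labelled TRKC+/-, and *Acta1*, *Tnnt3* and *Mylpf* in AdNTF3-Tg, but all 5 markers were higher than in WT_2 in both mutant libraries. The 5 satellite glia markers summed to 573.5 FPKM in WT_1, 422.1 in WT_2, 527.5 in the library labelled TRKC+/- and 519.9 in AdNTF3-Tg, the 4 Schwann cell markers to between 537.0 and 569.5, the 4 endothelial markers to between 24.4 and 28.5, and the 4 macrophage markers to between 59.4 and 81.4. Of the 5 sensory neuron markers, 4 (*Calca*, *Scn10a*, *Trpv1* and *Mrgprd*) were higher than in WT by more than the cutoff in AdNTF3-Tg, on 8 to 52 reads each. Against WT_1 alone, *Scn10a* (0.44) and *Trpv1* (0.38) did not pass. In the library labelled TRKC+/- 3 of the 5 passed (*Trpv1* higher, *Scn10a* and *Mrgprd* lower), and between WT_1 and WT_2 2 did (*Trpv1* higher and *Mrgprd* lower in WT_1). In these 2 comparisons 37.4% and 47.0% of all genes with under 25 reads passed in either direction, and 12.7% and 24.8% of those with 25 to 75. In AdNTF3-Tg 16.5% of all genes with a mean under 25 reads, as for *Trpv1* and *Mrgprd*, passed the cutoff upward, and 6.56% of those with 25 to 75 reads, as for *Calca* and *Scn10a*. The part of any of these cells in the receptor levels was not tested.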

How the data were processed

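The authors pooled the SG of several mice for each of the 4 libraries, isolated mRNA on oligo(dT) beads, sequenced it from 1 end on an Illumina HiSeq, filtered the reads with SOAPnuke and, per the study's methods, mapped those kept to mm9 with HISAT2. The submitters' processing notes instead name RSEM and mm10. The strand used in counting is not given in the sources used here. The tables the authors deposited hold, per Entrez gene, an expected count estimated from the mapped reads, an FPKM value and the gene and transcript lengths the authors used. Of the counts above 0 in a library, between 92.6% and 93.7% were whole numbers exactly as written, with no tolerance. A gene absent from a table was taken as 0 reads. Symbols and coordinates came from RefSeq (GRCm38.p6), which matched 17619 of 17667 identifiers (99.7%), and no count or FPKM value depends on the coordinates.

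The main measure was log2 of (FPKM + 0.1) over that of the mean of both WT libraries, with a cutoff of 0.5 and a minimum of 12 reads in total. Levels per gene came from 1 library per mutant and 2 of WT, so the depth, given in the report, limits genes with few reads. Counts rounded to whole numbers were tested with edgeR 4.0.16 (TMM, 1 residual degree of freedom, from the WT pair) and DESeq2 1.42.0 in R 4.3.3, and intervals were computed with scipy 1.17.1. The scripts were tested on simulated data. The 2 WT pools were controls of different mutant lines, and p-values measure only the spread between these samples, which may be technical or lie between lines. The receptors and all gene lists were chosen with earlier results of these data known. Named genes were the 9 receptors, list genes past the cutoff in a mutant or with a role given, the label checks *Ntrk3* and *Ntf3*, and the 3 nearest patterns for receptors with at least 100 reads on average, of which 1 is not reported here. *Npcd* and the genes named for the WT pair were added after their values were seen. Alternatives were other pseudocounts, filters, scalings and cutoffs, DESeq2, and each WT library left out.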

Additional observations from a re-analysis of the deposited data

How the results depend on the processing

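The number of genes past the cutoff followed the settings for low levels. In the library labelled TRKC+/- it was 1291, and 292 with a pseudocount of 1, 2602 with no filter, 437 where the mean FPKM had to reach 1 and 333 with a cutoff of 1. In AdNTF3-Tg it was 1672, and 441, 2996, 704 and 434 under these settings. Between the WT libraries it was 2013, and 665, 3381, 939 and 580. With either WT library left out it was 1605 to 1925 and 2033 to 2113. Without WT replicate 1, the share above WT moved from 40.9% to 53.2% in the library labelled TRKC+/-. DESeq2 called 2 genes there where edgeR called 0.

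No receptor changed direction past the cutoff under any alternative. A pseudocount of 1 removed every call among the receptors. *Npy2r* in AdNTF3-Tg fell to 0.09 without WT replicate 1, and in the library labelled TRKC+/- it came to 0.62 without WT replicate 2. The levels differed by less than the WT spread after rescaling to an equal FPKM sum. edgeR without a WT replicate could not be fitted, since no residual degrees of freedom remain, and levels per longest transcript were not run, since the tables give a length. No paired analysis was possible because each mutant has 1 library and the labels pair none with a WT library.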
